A study of Homo sapiens with 14 samples.

Results

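The step between 24 h and 48 h in a time course of drug treatment was examined: the 2 arrays of WM9 cells kept in 10 µM PLX4720 for 48 h were set against the 2 arrays of cells kept in it for 24 h. WM9 is an established human melanoma line, and PLX4720 is an inhibitor of the BRAF kinase. These 4 arrays were chosen by their labels from 14, and all probes of the signal table entered the analysis. The other arrays held cells kept in PLX4720 for 12, 60, 72 or 96 h and cells given only the solvent, DMSO, for 96 h, again 2 arrays a group, called biological replicates in the series' design text. Every array of the step carried the drug at 1 dose, and no DMSO array was taken at 24 h or 48 h, so hours in drug and hours in culture cannot be told apart. All cells came from 1 line, and the arrays measured RNA of the whole culture, so fewer cells of a kind and less RNA per cell cannot be told apart either.

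The BRAF kinase feeds the MEK and ERK kinases, which in melanoma drive the transcription of D-type cyclins, of AP-1 and ETS factors, and of the pathway's own inhibitors, the Sprouty proteins and dual specificity phosphatases. Cells cut off from this signal leave the cell cycle. In melanoma cells, the lineage factor MITF and the coactivator PPARGC1A, which drive pigment genes and mitochondrial biogenesis, are known to act when ERK signalling is low. The series title names oxidative phosphorylation and senescence, so lists for both were among the 40 gene lists described here.

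Expression was fitted for 12520 genes over the 12 PLX4720 arrays with limma, and levels are given as log2 normalized intensity. The labels name no batch. Median raw signals ran from 232 to 316 on the PLX4720 arrays, and replicate 2 had the lower median of its pair at every time. The 2 DMSO arrays differed most. The SD of their log2 difference was 0.56, with 7.06% of genes over 2-fold apart. For the PLX4720 pairs these were 0.297 to 0.345 and 0.455% to 1.2%, so the DMSO means given below are less precise. All 10 melanoma markers were above background on at least 1 of the 4 arrays, 6 of them (MITF, SOX10, TYRP1, S100B, S100A1 and PAX3) on all 4, and their summed linear signal was 24990 and 28190 at 48 h, against 24850 and 26610 at 24 h. Among markers of other cell types, PTPRC, CD3E and MS4A1 of leukocytes, CDH5 and VWF of endothelium, KRT5 and KRT1 of keratinocytes, and COL1A1 and PDGFRA of fibroblasts were above background on none of the 4 arrays. On all 4 were CD2 and CD68 of leukocytes, KDR of endothelium, KRT10 and DSC3 of keratinocytes, and COL1A2, DCN, LUM and FAP of fibroblasts. The summed signals of those lists were 20690 and 19820 at 48 h against 19340 and 16510 at 24 h for leukocytes, 720.2 and 731.8 against 862.9 and 972.8 for endothelium, 9602 and 10580 against 10180 and 12280 for keratinocytes, and 8975 and 8378 against 9085 and 8577 for fibroblasts. The part of these markers in the results was not tested.

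Between 24 h and 48 h, 1532 genes changed at an adjusted p of 0.05 by limma, 766 higher at 48 h (6.12% of those tested) and 766 lower (6.12%). The small heat shock protein CRYAB, 5 of 14 pigment genes and 24 of 67 genes of G2 and mitosis were among the rises, and 13 of 20 NRF2 antioxidant genes and 6 of 18 sterol genes among the falls. Most changes were modest. The median size was 1.7-fold for the rises, with 174 over 2-fold and 6 over 4-fold. It was 1.73-fold for the falls, with 209 over 2-fold and 18 over 4-fold. In all 1532 genes both 48 h arrays lay beyond both 24 h arrays, as they did in 7008 of the 12520 genes tested. Of the rises, 72 were not well above background on either 24 h array, and 75 of the falls on neither 48 h array. Their folds are at best bounds. In 4 rises neither 48 h array was above background, and in 2 falls neither 24 h array. For these even the higher level was under the limit. Of the 243 rises with several probes above background, 33 had a probe that pointed the other way, as had 29 of 202 falls.

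The number of calls leaned on single arrays. A group left with 1 array borrows its spread from the others. Without replicate 1 or 2 of 48 h the count was 475 and 1127, and without replicate 1 or 2 of 24 h it was 649 and 467. Called with all arrays and without each of the 4 in turn were 338 genes, 154 higher and 184 lower at 48 h. The main fit has no term for the replicate number. With that number as a block 2676 genes passed, 1347 higher (10.8%) and 1329 lower (10.6%). Same-numbered arrays deviated together from their group means, but whether the number pairs the samples was not tested.

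**Figure D1:**
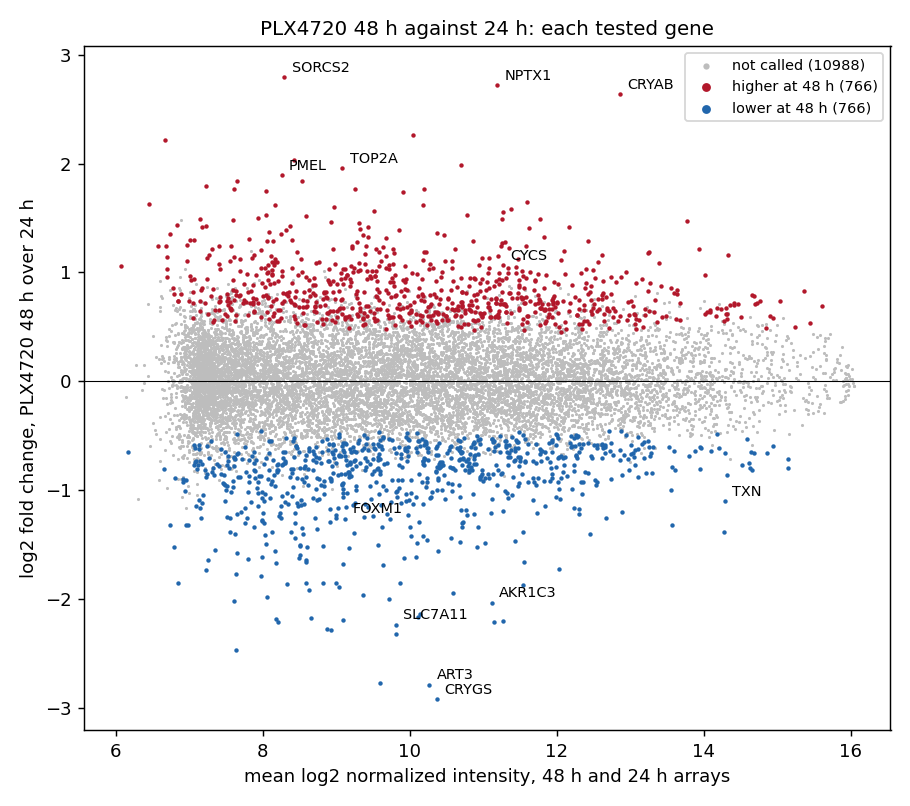
Log2 fold change of 48 h over 24 h in PLX4720 (vertical axis) against the mean log2 normalized intensity of the 4 arrays (horizontal axis) for the 12520 genes tested, with 766 higher and 766 lower genes coloured. Calls run across the intensity range, and changes over 2 log2 units lie at low to high intensities, with CRYAB the brightest named among them.

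The largest rises were those of SORCS2, NPTX1 and CRYAB. SORCS2, a sorting receptor of the VPS10 family, had 9.88 and 9.51 at 48 h, against 7.12 and 6.67 at 24 h. Neither 24 h array was well above background, so the rise was at least 5.09-fold (adjusted p = 4.49e-05). NPTX1, a secreted pentraxin of synapses, had 12.52 and 12.58 at 48 h, against 9.71 and 9.94 at 24 h, which is 2.72 ± 0.15 (SE) as a log2 fold change (adjusted p = 9.79e-06). CRYAB, alpha-B-crystallin, a small heat shock protein that holds unfolded proteins in solution, had 14.25 and 14.11 at 48 h, against 11.59 and 11.497 at 24 h, which is 2.64 ± 0.15 (SE) as a log2 fold change (adjusted p = 9.79e-06). For all 3 genes the replicates of a time lay close together and far from those of the other time. LGI3, a secreted leucine-rich repeat protein, had 11.17 and 11.19 at 48 h, against 8.94 and 8.897 at 24 h, and SORCS1, of the same receptor family as SORCS2, had 11.68 and 11.701 at 48 h, against 9.65 and 9.76 at 24 h. NDNF, a secreted neurotrophic factor, had 9.41 and 9.47 at 48 h, against 7.498 and 7.32 at 24 h, with 1 of the 24 h arrays above background. These genes are named by size of change among called genes whose 48 h and 24 h arrays did not overlap. That both 48 h arrays were higher is thus set by the choice.

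The other large rises were of mixed kind. PMEL, the protein of the fibrils on which melanin is laid down, had 9.03 and 9.37 at 48 h, against 7.44 and 7.18 at 24 h, which is 1.89 ± 0.19 (SE) as a log2 fold change (adjusted p = 0.000256). TOP2A, the topoisomerase that untangles chromosomes for mitosis, had 10.16 and 9.96 at 48 h, against 8.13 and 8.07 at 24 h, which is 1.96 ± 0.18 (SE) as a log2 fold change (adjusted p = 9.4e-05). PTPRZ1, a receptor tyrosine phosphatase, had 10.26 and 10.01 at 48 h, against 8.43 and 8.302 at 24 h. Both pairs of arrays stood apart in each of these genes, as the choice of genes required. COL28A1, a collagen chain, and ENTHD1 rose by 1.84 ± 0.20 (SE) and 1.77 ± 0.20 (SE) on the log2 scale. C1QTNF5, a secreted protein, MIR3142HG, the host transcript of a microRNA, GAPDHS, the sperm form of a glycolytic enzyme, and WNT4, a Wnt ligand, were not well above background at 24 h. Their rises were at least 1.34-fold, 2.33-fold, 1.72-fold and 2.21-fold. WNT4 had 8.01 and 8.96 at 48 h, against 6.66 and 6.78 at 24 h, the widest spread between 48 h replicates among the 15.

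The course of these genes over all times differed. CRYAB had a mean level of 9.84 in DMSO at 96 h, and 9.37, 11.54, 14.18, 14.94, 15.11 and 15.21 at 12, 24, 48, 60, 72 and 96 h in PLX4720. LGI3 stood at 6.75 in DMSO and 6.74, 8.92, 11.18, 11.94, 12.099 and 12.79 at the same times. NPTX1 stood at 8.37 in DMSO and 7.98, 9.83, 12.55, 12.61, 12.598 and 12.42 at those times. CRYAB and LGI3 thus had their highest mean at 96 h, while the means of NPTX1 from 48 h to 96 h lay between 12.42 and 12.61. PMEL, at 7.63, 7.31, 9.202, 10.16, 10.77 and 12.25, had its highest mean at 96 h, and PTPRZ1, at 7.55, 8.37, 10.13, 10.03, 10.45 and 9.61, its highest at 72 h.

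The largest falls were of mixed kind as well. CRYGS, a gamma-crystallin, had 8.82 and 8.99 at 48 h, against 11.69 and 11.96 at 24 h, which is -2.92 ± 0.17 (SE) as a log2 fold change (adjusted p = 1.28e-05). ART3, of the ADP-ribosyltransferase family, had 8.704 and 9.04 at 48 h, against 11.596 and 11.73 at 24 h, and HKDC1, a hexokinase, had 8.01 and 8.41 at 48 h, against 11.06 and 10.902 at 24 h. These 3 genes were all lower on both 48 h arrays by more than 2 log2 units. PGAM2, the muscle phosphoglycerate mutase of glycolysis, had 7.81 and 7.76 at 48 h, against 10.12 and 10.02 at 24 h. TKTL1, a transketolase-like protein, had 7.29 and 7.85 at 48 h, against 9.65 and 9.83 at 24 h, and 1 of its 48 h arrays was above background. SLC25A10, the mitochondrial dicarboxylate carrier, had 8.56 and 9.495 at 48 h, against 10.91 and 11.47 at 24 h, so that its replicates spread more than those of the other 14 falls.

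SLC7A11, the cystine and glutamate exchanger that supplies cysteine for glutathione, had 8.504 and 8.88 at 48 h, against 10.84 and 11.02 at 24 h, which is -2.24 ± 0.17 (SE) as a log2 fold change (adjusted p = 3.51e-05). SLC14A1, a urea transporter, had 8.73 and 8.58 at 48 h, against 11.09 and 10.87 at 24 h. NEFL, the light neurofilament, had 10.06 and 10.02 at 48 h, against 12.35 and 12.16 at 24 h, and PPP2R2B, a regulatory subunit of phosphatase PP2A, had 10.07 and 10.26 at 48 h, against 12.24 and 12.5 at 24 h, in the same direction with all 4 of its probes. In none of these did an array of 48 h reach the level of an array of 24 h, as the choice of genes required. ELAPOR1 and LCTL, a klotho-like protein, fell, with log2 fold changes of -2.28 and -2.19. PLEKHS1, GCNT3, a glycosyltransferase of mucins, and TBXAS1, the thromboxane synthase, were not well above background at 48 h, and fell at least 2.95-fold, 4.04-fold and 3.92-fold. Over the times from 12 h to 96 h, CRYGS had mean levels of 11.07, 11.83, 8.91, 8.41, 8.05 and 7.33, and a mean of 6.62 in DMSO. HKDC1 had 11.54, 10.98, 8.21, 8.05, 7.204 and 7.42 at those times, against 10.55 in DMSO. The 24 h level of CRYGS was the highest of its 6 times, while that of HKDC1 was below its level at 12 h.

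**Figure D2:**
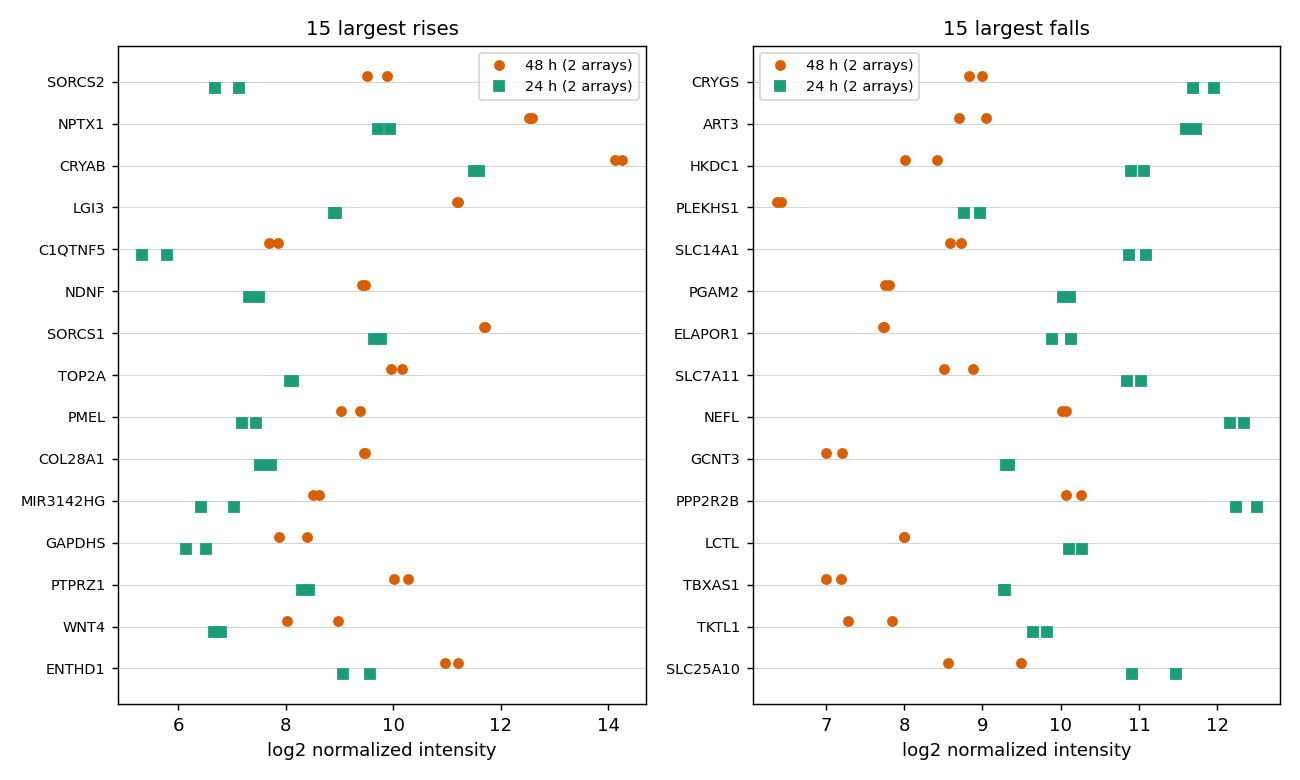
Log2 normalized intensity on each of the 2 arrays at 48 h (circles) and the 2 at 24 h (squares) in PLX4720, for the 15 genes with the largest rises (left) and the 15 with the largest falls (right). Only genes whose 48 h arrays all lie on one side of the 24 h arrays were eligible, so that separation is set by the choice. The widest replicate gaps are in WNT4 and SLC25A10.

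Part of the mitotic programme was higher at 48 h than at 24 h. Of 67 tested genes of G2 and mitosis, 24 rose and 2 fell, which left 41, against 6.12% rising over all genes. The list's median log2 fold change was 0.51, against 0.0094 over all genes tested. NUSAP1, a spindle protein, had 9.75 and 9.79 at 48 h, against 8.26 and 8.07 at 24 h, which is 1.601 ± 0.14 (SE) as a log2 fold change (adjusted p = 9.4e-05). CEP55, which acts at abscission, had 9.26 and 8.91 at 48 h, against 7.66 and 7.65 at 24 h, which is 1.43 ± 0.20 (SE) as a log2 fold change (adjusted p = 0.00152). UBE2C, the ubiquitin-conjugating enzyme of the anaphase-promoting complex, had 9.94 and 10.01 at 48 h, against 8.62 and 8.99 at 24 h. In these genes and in TOP2A no array of one time overlapped the other. CDK1, the kinase that starts mitosis, had 8.802 and 8.57 at 48 h, against 7.68 and 7.395 at 24 h, and CCNA2, its cyclin A partner, had 9.32 and 9.39 at 48 h, against 8.35 and 8.5 at 24 h. CENPA, the histone of centromeres, had 8.25 and 8.66 at 48 h, against 7.25 and 7.35 at 24 h, with both 24 h arrays below the limit for background.

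Not all of the programme moved the same way. FOXM1, the transcription factor that drives many G2 genes, had 8.47 and 8.51 at 48 h, against 9.82 and 9.69 at 24 h, and fell by 1.26 on the log2 scale (adjusted p = 0.00154). TPX2, an activator of Aurora A, had 9.97 and 10.12 at 48 h, against 10.84 and 10.603 at 24 h (adjusted p = 0.0327). Both were the list's only falls, and 59 of its 67 genes had a value above 0. AURKA itself had a log2 fold change of -0.019 and CDC25B one of -0.39, neither past the threshold. CCNB1, the B-type cyclin, had 8.09 and 8.09 at 48 h, against 7.84 and 7.43 at 24 h, with an adjusted p of 0.0864 that was 0.0498 with the replicate block. PLK1 had a log2 fold change of 0.76 and MKI67, the proliferation marker, was not above background on any of the 4 arrays.

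The level at 48 h was far below that of early treatment. Set against each gene's 24 h mean, the list's median stood 1.86 log2 units higher in DMSO at 96 h, 2.75 higher at 12 h, 0.51 higher at 48 h, 0.51 at 60 h, 0.48 at 72 h and 0.16 at 96 h. TOP2A had mean levels of 11.17 in DMSO and 12.55, 8.104, 10.06, 10.01, 9.74 and 8.49 at the 6 times in PLX4720. Without single arrays the count of rises on the list was 10 and 18 (without replicate 1 or 2 of 48 h) and 13 and 8 (without replicate 1 or 2 of 24 h). The 7 that rose in every one of those fits were TOP2A, NUSAP1, CEP55, UBE2C, CENPA, CDK1 and CCNA2. With the replicate block 34 rose and 3 fell.

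Promoters of mitotic genes are known to carry a CHR element, read by the DREAM and MMB complexes, beside CCAAT boxes, read by NF-Y. The 250 bases before the first listed start in RefSeq (GRCh38.p14) were searched on both strands for TTTGAA (CHR) and CCAAT, motifs that do not overlap in the windows printed here. A start was listed for 56 of the 67 genes. Among them 29 (51.8%) held TTTGAA, against 9.03% of the 10075 tested genes with a start and 13.6% of all 27305 genes with one. CCAAT was in 39 (69.6%), against 35.5% of tested genes. TTTGAA was in 10 of the 20 genes that rose and 19 of the 36 that did not, and CCAAT in 17 of 20 and 22 of 36. The windows of 2 genes that rose and hold both motifs are printed to show the layout, in lower case with matches to either motif, on either strand, in capitals. TOP2A lies at chr17:40417897-40418146 on the minus strand with 2 CHR and 4 CCAAT matches, and CEP55 at chr10:93496362-93496611 on the plus strand with 1 of each, 116 and 102 bases before the start.
TOP2A: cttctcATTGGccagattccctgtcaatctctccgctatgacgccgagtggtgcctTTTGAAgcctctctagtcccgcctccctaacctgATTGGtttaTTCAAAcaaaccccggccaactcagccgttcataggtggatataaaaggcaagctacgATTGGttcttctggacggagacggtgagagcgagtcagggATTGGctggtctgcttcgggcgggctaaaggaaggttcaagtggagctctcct
CEP55: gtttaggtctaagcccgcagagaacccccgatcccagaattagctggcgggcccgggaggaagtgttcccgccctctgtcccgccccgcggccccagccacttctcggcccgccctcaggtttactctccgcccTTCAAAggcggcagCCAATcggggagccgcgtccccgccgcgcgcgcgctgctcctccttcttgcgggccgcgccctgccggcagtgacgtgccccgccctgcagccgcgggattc

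Genes of G1/S and DNA replication moved less. Out of 57 measured, 9 rose (15.8%) and 3 fell (5.26%), which left 45, against 6.12% each way over all genes. The median was 0.21. CDCA7 had 10.06 and 10.45 at 48 h, against 8.93 and 9.27 at 24 h, and E2F2, an activator of S-phase genes, had 8.601 and 9.24 at 48 h, against 7.79 and 7.97 at 24 h. CDC45, of the replicative helicase, had 8.96 and 9.23 at 48 h, against 8.25 and 8.07 at 24 h, and EXO1, a repair exonuclease, had 8.89 and 9.24 at 48 h, against 7.98 and 8.23 at 24 h. In each of them both 48 h arrays were higher. TK1, the thymidine kinase of S phase, went the other way with 8.47 and 8.41 at 48 h, against 9.59 and 9.63 at 24 h (adjusted p = 0.0123). CHAF1B, a histone chaperone, had 8.97 and 9.24 at 48 h, against 9.84 and 10.03 at 24 h. Of the helicase subunits, MCM4 and MCM7 rose by 0.56 and 0.59 on the log2 scale, with 1 of 2 probes of MCM7 in the other direction. MCM2 had a log2 fold change of 0.32, which did not pass. The list's rises numbered 3 to 4 without any 1 of the 4 arrays. No replication-dependent histone passed of 12 tested, with a median of -0.40, by limma at the adjusted threshold (1 higher and 5 lower at an unadjusted p of 0.05). With the replicate block 1 histone gene rose and 4 fell.

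Among inhibitors of cyclin-dependent kinases and other senescence genes, 3 of 19 rose (15.8%) and 1 fell (5.26%), against 6.12% each way over all genes. CDKN1C, the p57 inhibitor, had 7.301 and 6.86 at 48 h, against 8.82 and 8.92 at 24 h and was not above background at 48 h, a fall of at least 2.96-fold (adjusted p = 0.000392). CDKN1A, the p21 inhibitor, had 15.51 and 15.66 at 48 h, against 15.46 and 15.48 at 24 h, near the top of the intensity scale, and CDKN1B, the p27 inhibitor, had 10.86 and 10.69 at 48 h, against 10.4 and 10.79 at 24 h. For both the arrays of the times overlapped or lay within replicate spread, and neither passed. CDK6 had 10.44 and 10.34 at 48 h, against 9.25 and 9.696 at 24 h and rose by 0.91 on the log2 scale. HMGB2, a chromatin protein lost in senescent cells, rose by 0.75, and LMNB1, the lamin lost in senescent cells, had 7.902 and 8.004 at 48 h, against 7.59 and 7.51 at 24 h and did not pass (adjusted p = 0.213). Of 19 p53 targets 2 fell: TP53I3 had 9.55 and 9.67 at 48 h, against 11.23 and 11.11 at 24 h and BAX had 12.18 and 11.88 at 48 h, against 12.65 and 12.63 at 24 h. For BAX 1 of 3 probes pointed the other way. Under the replicate block 2 p53 targets rose and 2 genes of the senescence list fell.

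NRF2 antioxidant genes had the lowest median of the 35 lists that are not cell type markers. NRF2 is the factor that raises enzymes of glutathione, thioredoxin and NADPH supply through antioxidant response elements. Of 20 tested, 13 fell, none rose (1 at an unadjusted p of 0.05, and 1 with the replicate block) and 7 were left, against 6.12% falling over all genes, and the median was -0.66. AKR1C3, an aldo-keto reductase, had 9.86 and 10.34 at 48 h, against 12.07 and 12.202 at 24 h, which is -2.04 ± 0.25 (SE) as a log2 fold change (adjusted p = 0.000791). AKR1C2, of the same family, had 8.595 and 8.98 at 48 h, against 10.53 and 10.42 at 24 h. AKR1C2 and AKR1C3 are close copies, and probes may read both. AKR1B10 had 6.44 and 6.77 at 48 h, against 8.68 and 8.57 at 24 h and was not above background at 48 h, a fall of at least 2.49-fold (adjusted p = 0.00027).

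The falls included enzymes of NADPH supply, of thiol reduction and of glutathione synthesis. In NADPH supply, PGD of the pentose phosphate pathway had 11.17 and 11.07 at 48 h, against 12.48 and 12.18 at 24 h, which is -1.21 ± 0.20 (SE) as a log2 fold change (adjusted p = 0.00315), and TKT and TALDO1 fell, with log2 fold changes of -0.65 and -0.53. In thiol reduction, TXN, thioredoxin, had 13.61 and 13.87 at 48 h, against 14.85 and 14.85 at 24 h (adjusted p = 0.00267), PRDX1, a peroxiredoxin, had 13.53 and 13.57 at 48 h, against 14.25 and 14.47 at 24 h, and GSR, glutathione reductase, had 10.24 and 10.13 at 48 h, against 11.05 and 10.91 at 24 h. In every one of these genes both 48 h arrays were lower. In glutathione synthesis, GCLM, the modifier subunit of glutamate-cysteine ligase, had 9.78 and 9.23 at 48 h, against 10.55 and 10.51 at 24 h, with 1 of 2 probes in the other direction, while GCLC, its catalytic subunit, had a log2 fold change of 0.53 that did not pass. NQO1, the quinone reductase, had 14.54 and 14.52 at 48 h, against 15.21 and 15.19 at 24 h, and ABCC2 and SRXN1 fell, with log2 fold changes of -0.79 and -0.48. HMOX1 and TXNRD1, at -0.38 and -0.34, did not pass.

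Set against 24 h, the median of the NRF2 list was -0.57 in DMSO at 96 h, 0.20 at 12 h, -0.66 at 48 h, -0.56 at 60 h, -0.63 at 72 h and -0.69 at 96 h. The 4 later times thus lay close to the DMSO arrays and below both early times. Without single arrays 8 and 10 genes fell (without replicate 1 or 2 of 48 h) and 7 each without replicate 1 or 2 of 24 h. The 6 that fell in every one of those fits were AKR1C3, AKR1B10, AKR1C2, PGD, TXN and GCLM. SLC7A11, described above and counted among ATF4 targets, is also known as an NRF2 target.

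The core of the antioxidant response element, TGACNNNGC, was searched in the same windows on both strands. It was in 3 of 15 NRF2 genes with a listed start (20%) and in 2 of the 10 that fell, against 12.4% of tested genes and 11% of all genes with a start. Response elements of this pathway often lie outside the searched 250 bases. The 2 windows among genes that fell are printed with the match in capitals. PGD lies at chr1:10398814-10399063 on the plus strand, with the match 201 bases before the start, and GCLM at chr1:93909431-93909680 on the minus strand, with the match 34 bases before it.
PGD: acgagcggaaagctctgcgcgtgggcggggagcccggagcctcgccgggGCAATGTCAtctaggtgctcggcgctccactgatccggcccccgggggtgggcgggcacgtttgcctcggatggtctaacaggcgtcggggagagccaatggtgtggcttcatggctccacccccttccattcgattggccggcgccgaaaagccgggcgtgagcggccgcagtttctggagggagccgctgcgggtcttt
GCLM: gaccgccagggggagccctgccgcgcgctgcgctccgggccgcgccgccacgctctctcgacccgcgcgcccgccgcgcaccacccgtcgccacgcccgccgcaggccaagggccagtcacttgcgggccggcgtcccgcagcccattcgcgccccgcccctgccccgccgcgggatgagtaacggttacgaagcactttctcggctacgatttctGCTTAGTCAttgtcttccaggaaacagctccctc

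Some of the ERK output genes rose. Out of 26 measured, 6 rose (23.1%) and 1 fell (3.85%), which left 19, against 6.12% each way over all genes. The median was 0.13. CCND1, cyclin D1, had 11.44 and 11.46 at 48 h, against 10.504 and 10.52 at 24 h, which is 0.94 ± 0.14 (SE) as a log2 fold change (adjusted p = 0.00184). SPRY1, a Sprouty inhibitor of the pathway, had 8.09 and 7.95 at 48 h, against 6.91 and 6.64 at 24 h and, not above background at 24 h, rose at least 1.6-fold. MYC had 9.63 and 9.87 at 48 h, against 9.004 and 9.11 at 24 h, and MAFF had 9.52 and 9.69 at 48 h, against 8.63 and 8.53 at 24 h. Both arrays of 48 h were the higher in these 4 genes. DUSP4, a phosphatase of ERK, was not above background at 24 h and rose at least 1.01-fold, and KLF6 rose by 0.68 on the log2 scale. FOS, an AP-1 factor of the immediate early response, had 7.23 and 7.46 at 48 h, against 8.82 and 8.44 at 24 h, and fell by 1.28 on the log2 scale (adjusted p = 0.0018). It was the list's only fall, and 2 fell with the replicate block.

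Other direct readouts of the pathway did not pass. DUSP6 had 10.18 and 10.03 at 48 h, against 10.12 and 9.92 at 24 h and ETV5, an ETS factor, had 7.73 and 7.71 at 48 h, against 7.93 and 7.97 at 24 h, while SPRY4 was not above background on any of the 4 arrays. The 48 h and 24 h arrays of DUSP6 overlapped. At 48 h in PLX4720 the mean level was 10.11 for DUSP6, against 13.16 in DMSO at 96 h, 7.72 against 13.07 for ETV5, and 11.45 against 14.79 for CCND1. Without single arrays 4 or 5 list genes rose. Those that rose in every one of those fits were SPRY1, MAFF and CCND1.

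Pigment genes moved in both directions, with more rises than falls. Of 14 tested genes of pigment and melanosomes 5 rose (35.7%) and 2 fell (14.3%), which left 7, against 6.12% each way over all genes. The median was 0.33. PMEL was described above. TYRP1, an enzyme of melanin synthesis, had 11.71 and 11.502 at 48 h, against 10.85 and 10.27 at 24 h, which is 1.05 ± 0.20 (SE) as a log2 fold change (adjusted p = 0.00789). TYR, tyrosinase, the first enzyme of that path, had 7.93 and 8.58 at 48 h, against 7.07 and 7.198 at 24 h and was not above background at 24 h, a rise of at least 1.88-fold (adjusted p = 0.0108). RAB38 and BACE2, which act in melanosome transport and PMEL processing, rose by 0.65 and 0.73 on the log2 scale. MC1R, the melanocortin receptor, had 9.75 and 10.401 at 48 h, against 11.004 and 11.16 at 24 h, and fell by 1.01 on the log2 scale (adjusted p = 0.0212), and CAPN3 had 10.298 and 10.496 at 48 h, against 11.29 and 11.14 at 24 h. The replicates of MC1R at 48 h spread by more than those at 24 h. PMEL alone of the 5 rises was called without each of the 4 arrays in turn, and without replicate 2 of 24 h it was the only rise.

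MITF, the factor that drives pigment genes, had 11.77 and 11.44 at 48 h, against 11.23 and 11.05 at 24 h and did not pass (adjusted p = 0.0952), though it did with the replicate block (0.0328), and 1 of its 2 probes pointed the other way. Among 16 lineage regulators 2 rose and 2 fell (12.5% each), against 6.12% each way over all genes. With the replicate block 4 rose, against 10.8% over all genes. NGFR, a receptor of neural crest cells, had 11.19 and 11.005 at 48 h, against 10.07 and 10.03 at 24 h, and TFAP2A, a neural crest factor, had 15.14 and 15.31 at 48 h, against 14.56 and 14.73 at 24 h. PDGFRB, a growth factor receptor, had 7.13 and 7.07 at 48 h, against 8.43 and 8.18 at 24 h and fell at least 2-fold to below the background limit, and ERBB2 had 10.76 and 11.29 at 48 h, against 11.58 and 11.86 at 24 h. In each of the 4 the arrays of the times did not overlap.

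A few genes of lysosomes and autophagy rose. Of 46 lysosome genes 6 rose (13%) and 1 fell, with a median of 0.21, and of 23 autophagy genes 4 rose and none fell (0 at an unadjusted p of 0.05), with a median of 0.099, against 6.12% rising over all genes. With the replicate block 12 lysosome genes rose and 2 fell, against 10.8% rising over all genes. CTSF and CTSK, cysteine cathepsins, had 13.04 and 12.95 at 48 h, against 12.05 and 12.04 at 24 h for CTSF and 15.71 and 15.86 at 48 h, against 14.93 and 14.98 at 24 h for CTSK. SMPD1, the acid sphingomyelinase, rose by 0.75, and SCARB2, LAMP2 and GALC, a membrane receptor, a membrane protein and a lipid hydrolase, by 0.71, 0.70 and 0.66 on the log2 scale. All 6 probes of LAMP2 were higher at 48 h. IDS, a sulfatase, had 11.65 and 11.78 at 48 h, against 12.44 and 12.54 at 24 h, the list's only fall. OPTN, a receptor that brings cargo to autophagosomes, had 10.21 and 10.29 at 48 h, against 8.94 and 9.08 at 24 h, which is 1.24 ± 0.17 (SE) as a log2 fold change (adjusted p = 0.00121). ATG5, ATG14 and WIPI1 rose by 0.75, 0.60 and 0.56. The lysosome rises numbered 3 and 5 without replicate 1 or 2 of 48 h and 2 and 3 without replicate 1 or 2 of 24 h, and the autophagy rises 1 and 2, and 1 each.

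The 4 lists of respiratory complexes held 0 or 1 call each. In complex I 2.94% rose and 0% fell, in complexes II and III 8.33% and 0%, and in complexes IV and V 0% both ways. Over all genes 6.12% rose and 6.12% fell. PPARGC1A, the coactivator of mitochondrial biogenesis, had 12.34 and 12.12 at 48 h, against 11.44 and 11.61 at 24 h, which is 0.71 ± 0.17 (SE) as a log2 fold change (adjusted p = 0.0216). CYCS, cytochrome c, had 11.78 and 11.83 at 48 h, against 10.79 and 10.69 at 24 h, which is 1.07 ± 0.19 (SE) as a log2 fold change (adjusted p = 0.0058). Both were higher on each 48 h array. NDUFS4 was the only one of 34 complex I genes to rise, by 0.62, and none fell (2 at an unadjusted p of 0.05). CYCS was the only one of 12 genes in the list of complexes II and III, and none of 11 complex IV or 15 complex V genes passed in either direction by limma at the adjusted threshold. At an unadjusted p of 0.05 these were 0 higher and 0 lower in complex IV and 0 higher and 1 lower in complex V. The medians of the 4 lists were -0.044, -0.0095, 0.037 and -0.082, and that of complex V alone kept its sign without each of the 4 arrays. TFB2M, a mitochondrial transcription factor, had 13.07 and 12.95 at 48 h, against 12.35 and 12.36 at 24 h. Of 62 mitochondrial ribosomal proteins 1 rose (MRPS25, by 0.77) and 1 fell (MRPL16, with -0.50), of 17 genes of the tricarboxylic acid cycle none passed (0 higher and 1 lower at an unadjusted p of 0.05), and of 19 genes of fatty acid oxidation 1 rose (ETFDH, by 0.66). Under the replicate block 3 mitochondrial ribosomal proteins rose and 6 fell, 1 gene of the tricarboxylic acid cycle fell and 2 of fatty acid oxidation rose. PPARGC1A had a mean of 9.08 in DMSO and 9.98, 11.52, 12.23, 12.03, 12.23 and 11.77 at the 6 times. CYCS was not called without replicate 2 of 24 h, and PPARGC1A was called in 1 of the 4 fits that left out an array.

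In glycolysis and glucose transport 1 gene of 23 rose (4.35%) and 2 fell (8.7%), near the 6.12% each way over all genes. PFKFB2, which sets the level of the activator of phosphofructokinase, had 9.71 and 9.76 at 48 h, against 8.87 and 8.597 at 24 h. LDHA, lactate dehydrogenase, had 14.36 and 14.12 at 48 h, against 14.96 and 15.02 at 24 h, and GAPDH had 14.77 and 14.79 at 48 h, against 15.57 and 15.43 at 24 h. Both enzymes were lower on each 48 h array. Sterol synthesis and uptake fell in part: 6 of 18 fell, none rose (1 at an unadjusted p of 0.05), and the median was -0.31. MSMO1, a demethylase of the sterol path, had 10.11 and 10.02 at 48 h, against 11.53 and 11.204 at 24 h, which is -1.302 ± 0.16 (SE) as a log2 fold change (adjusted p = 0.000855). TM7SF2, a sterol reductase, had 9.13 and 9.598 at 48 h, against 10.36 and 10.83 at 24 h. LSS, DHCR7, MVK and SQLE, enzymes of the same path, fell, with log2 fold changes of -0.85, -0.69, -0.67 and -0.62. HMGCS1 had 11.34 and 11.3 at 48 h, against 11.42 and 11.64 at 24 h and did not pass. In fatty acid synthesis 1 of 11 fell, ME1, with 10.46 and 10.18 at 48 h, against 11.37 and 10.81 at 24 h. Under the replicate block 2 rose and 4 fell in fatty acid synthesis, 2 rose and 4 fell in glycolysis, and 1 sterol gene rose. Without any 1 of the 4 arrays 3 or 4 sterol genes fell, and 3 fell in every one of those fits: MSMO1, TM7SF2 and LSS.

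Stress programmes split. Of 29 ATF4 targets 4 rose (13.8%) and 2 fell (6.9%), against 6.12% each way over all genes, with a median of -0.015. With the replicate block 6 rose and 5 fell, against 10.8% and 10.6% over all genes. ATF3 and DDIT3, factors of the response, had 13.66 and 13.499 at 48 h, against 13.02 and 12.85 at 24 h for ATF3 and 11.56 and 11.39 at 48 h, against 10.95 and 10.798 at 24 h for DDIT3. SLC7A1 and MTHFD2 rose by 0.65 and 0.59, and WARS1, a tRNA synthetase, fell by 0.61 on the log2 scale, as did SLC7A11 by 2.24. Of 16 chaperones of the endoplasmic reticulum SEL1L and DNAJB9 rose by 0.82 and 0.77, and MANF fell by 0.48. Of 17 heat shock genes CRYAB rose with HSPA1A, by 0.73, and HSP90AA1, by 0.49, and the list's median was 0.058. HSPB1 and HSPB8, small heat shock proteins like CRYAB, had log2 fold changes of 0.004 and -0.10.

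Of 15 hypoxia genes 3 rose (MXI1, P4HA1 and P4HA2, by 0.82, 0.77 and 0.52) with a median of 0.30. Of 13 genes of insulin signalling and FOXO factors KLF15 and ARRDC4 rose by 0.72 and 0.71, and SESN3 fell by 0.73. TXNIP, an inhibitor of thioredoxin that sits on the same list, had 14.998 and 15.12 at 48 h, against 14.61 and 15.01 at 24 h and did not pass. Of 31 ribosome biogenesis genes DDX21 and DKC1 rose, by 0.71 and 0.61, which is 6.45% of the list, near the 6.12% over all genes. The replicate block gave 6 rises among hypoxia genes, 4 rises and 1 fall among ribosome biogenesis genes, and 3 rises and 2 falls among insulin and FOXO genes. Over all genes it gave 10.8% rising and 10.6% falling. None of the hypoxia, insulin and ribosome biogenesis calls was made in all 4 fits that left out 1 array.

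Few interferon-stimulated genes passed, all of them lower. Of 31 tested 4 fell and none rose (1 higher and 13 lower at an unadjusted p of 0.05), 28 of the 31 had a value below 0, and the median was -0.37. ISG15, a ubiquitin-like protein, had 9.63 and 10.06 at 48 h, against 11.11 and 11.46 at 24 h, which is -1.44 ± 0.30 (SE) as a log2 fold change (adjusted p = 0.0114). PARP9 had 10.66 and 10.598 at 48 h, against 11.54 and 11.504 at 24 h, and IFI35 and OASL fell, with log2 fold changes of -0.77 and -0.78. With the replicate block 12 genes fell, and without replicate 1 or 2 of 48 h or of 24 h 1, 3, 3 and 1 fell. The list's median against 24 h was -0.67 in DMSO at 96 h, -0.09 at 12 h, -0.37 at 48 h, -0.48 at 60 h, -0.93 at 72 h and -0.98 at 96 h. Of 20 MHC genes TAP2, a peptide transporter subunit, had 12.14 and 11.92 at 48 h, against 10.92 and 10.901 at 24 h, HLA-B rose by 0.59, and PSMB9, an immunoproteasome subunit, fell by 0.82 on the log2 scale. Of the 20 MHC genes 10% rose and 5% fell, against 6.12% each way over all genes. Under the replicate block 3 MHC genes rose and 2 fell, against 10.8% and 10.6% over all genes. HLA-B belongs to a family of close copies that its probe may not tell apart.

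Of 27 secreted factors of senescent cells 4 rose (14.8%) and 1 fell (3.7%), against 6.12% each way over all genes. With the replicate block 6 rose and 3 fell, against 10.8% and 10.6% over all genes. GDF15, a stress cytokine, had 13.705 and 13.98 at 48 h, against 12.66 and 12.66 at 24 h, which is 1.18 ± 0.15 (SE) as a log2 fold change (adjusted p = 0.000843). CXCL8, a chemokine of neutrophils, had 8.23 and 8.15 at 48 h, against 7.01 and 6.89 at 24 h and was not above background at 24 h, a rise of at least 1.8-fold. IL1A and IGFBP5 rose by 0.81 and 0.60. MMP1, a collagenase, had 10.63 and 10.57 at 48 h, against 12.68 and 12.27 at 24 h, which is -1.88 ± 0.22 (SE) as a log2 fold change (adjusted p = 0.000588). CXCL8 had a mean of 9.82 in DMSO and 7.16, 6.95, 8.19, 9.05, 10.13 and 11.53 at the 6 times, and MMP1 one of 13.46 and 14.03, 12.48, 10.598, 10.004, 10.002 and 11.12.

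Among 35 matrix and adhesion genes 5 rose (14.3%) and 3 fell (8.57%), against 6.12% each way over all genes, with a median of 0.12. SPARC, a matrix glycoprotein, had 13.87 and 13.78 at 48 h, against 12.77 and 12.52 at 24 h, and ITGB8, an integrin chain, had 10.25 and 9.82 at 48 h, against 11.495 and 11.26 at 24 h. LAMB2, LAMC1, COL4A1 and CDH2, basement membrane chains and N-cadherin, rose by 0.52, 0.56, 0.56 and 0.57, and the integrins ITGA6 and ITGA3 fell, with log2 fold changes of -0.73 and -0.59. Only SPARC among the rises and ITGB8 among the falls were called without each of the 4 arrays. ID1, an inhibitor of differentiation factors, had 8.22 and 8.44 at 48 h, against 9.49 and 9.52 at 24 h, and BAMBI, a pseudoreceptor for TGF-beta, had 11.14 and 11.47 at 48 h, against 12.09 and 11.98 at 24 h, while PMEPA1 and TGFBR2 of the same list of 12 rose by 0.81 and 0.73. CCN2, a YAP target, had 9.696 and 9.77 at 48 h, against 10.71 and 10.69 at 24 h, while CCN1, its relative, had 11.37 and 11.17 at 48 h, against 10.66 and 10.63 at 24 h, and 2 YAP targets rose with the replicate block. Of 18 BCL2 family members BCL2 and BID rose by 0.77 and 0.69, BAX fell as given above, and BCL2L11, which encodes BIM, was below the background limit at 48 h and fell at least 1.1-fold. For BID 1 of 3 probes pointed the other way. Rises and falls each made 11.1% of the BCL2 list and 16.7% of the TGF-beta list, against 6.12% over all genes. LYZ of the leukocyte list had 6.603 and 6.47 at 48 h, against 7.88 and 7.704 at 24 h. It fell at least 1.4-fold to below the background limit. LYZ was called in all 4 fits that left out an array. Over the lists other than cell type markers and those of G2 and mitosis, NRF2, ERK output, sterols, pigment, lysosomes, interferon and matrix, the calls made in all 4 such fits were CRYAB, CXCL8, OPTN, GDF15, TAP2, CCND1, CDC45 and SEL1L, which rose, and SLC7A11, MMP1, CDKN1C, TP53I3, PDGFRB, ID1, CCN2 and PSMB9, which fell. The remaining marker lists had no call apart from PDGFRB, counted also among fibroblast markers, and TYRP1, TYR and PMEL, counted also among melanoma markers.

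**Figure D3:**
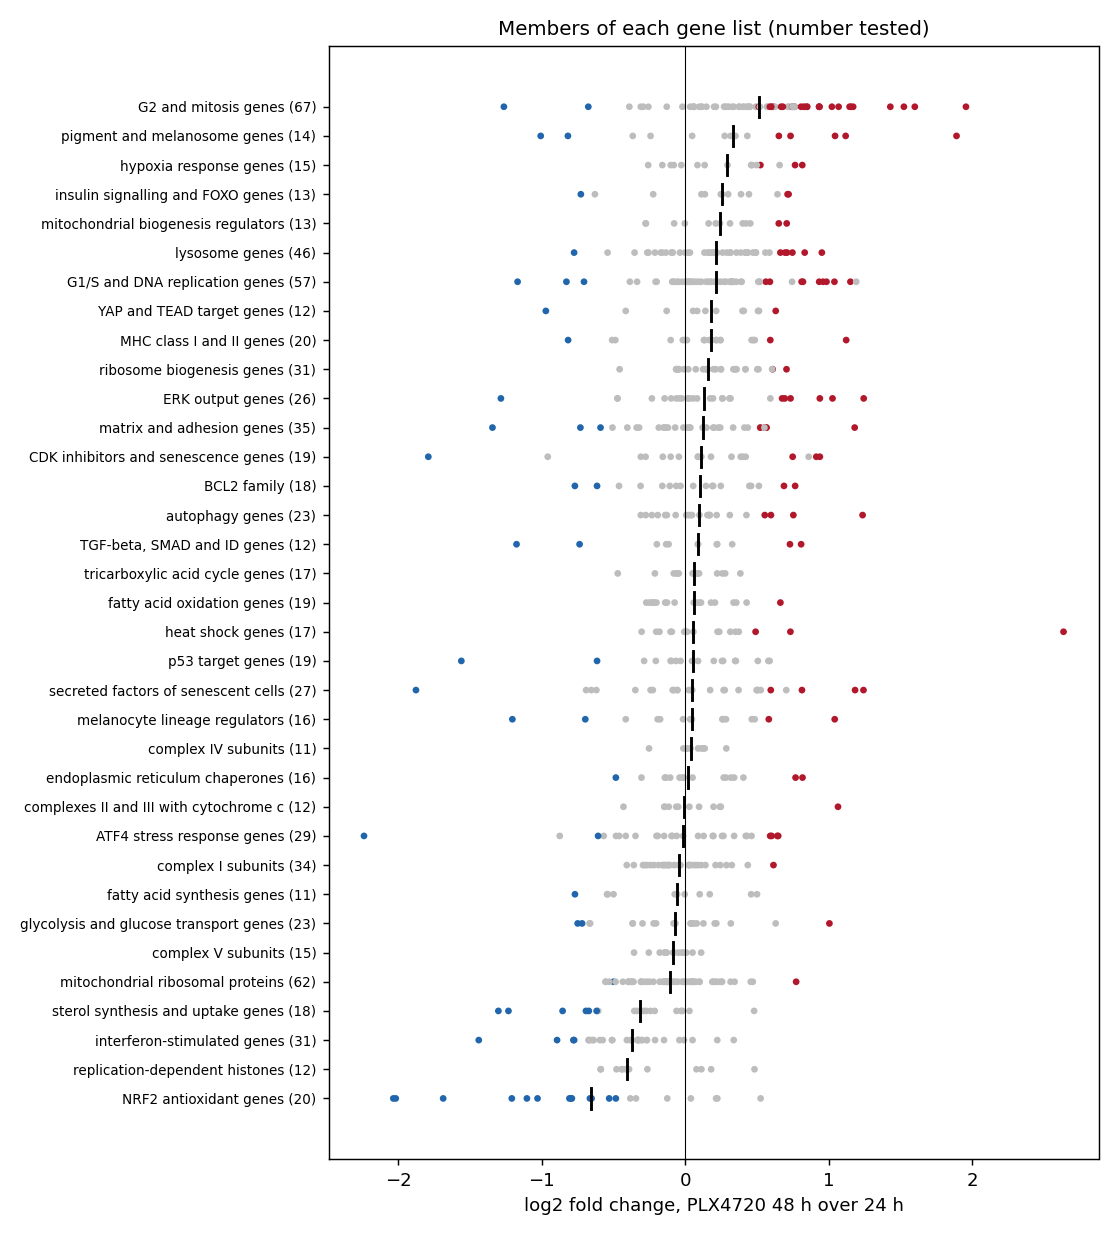
Log2 fold change of 48 h over 24 h for each tested member of 35 gene lists, ordered by the list's median (black bar), with the number tested in brackets. Red points passed the threshold as higher at 48 h, blue points as lower and grey points did not pass. The G2 and mitosis list has the highest median, 0.51, and the NRF2 list the lowest, -0.66.

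The step's genes were also read in a comparison that shares no array with it: the mean of 60, 72 and 96 h against 12 h, in the same fit. Both comparisons use the same estimate of each gene's spread, so passing in both is not independent. The base of the later comparison is 12 h, so changes between 12 h and 24 h count in it as well. Over all genes tested, 2691 were higher at the later times (21.5%) and 2450 lower (19.6%). Of the 766 genes that rose in the step, 565 were higher later than at 12 h (73.8%), 58 were lower (7.57%) and 143 passed in neither direction. Of the 766 that fell, 620 were lower later than at 12 h (80.9%), 12 were higher (1.57%) and 134 passed in neither direction. CRYAB had a log2 fold change of 5.72 in this comparison and LGI3 one of 5.54. ART3 had -4.19 and HKDC1 -3.98.

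The 58 genes that rose in the step and were lower later than at 12 h included all 24 risers of the G2 and mitosis list and 8 of the G1/S list, and 26 were on neither list. For TOP2A the log2 fold change of the later times over 12 h was -3.14 ± 0.14 (SE), and for CDK1 it was -2.004. Over the whole list 66 of 67 genes were lower later, none was higher, and the median was -2.29. Of the NRF2 list 14 of 20 were lower later and 1 was higher, with a median of -1.03. Of 46 lysosome genes 27 were higher and 2 lower, with a median of 0.60, and of 14 pigment genes 9 were higher and 1 was lower, with a median of 0.94. In complex I 16 of 34 and in complex IV 9 of 11 were higher, and none was lower, where the step itself had 1 and 0 calls.

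**Figure D4:**
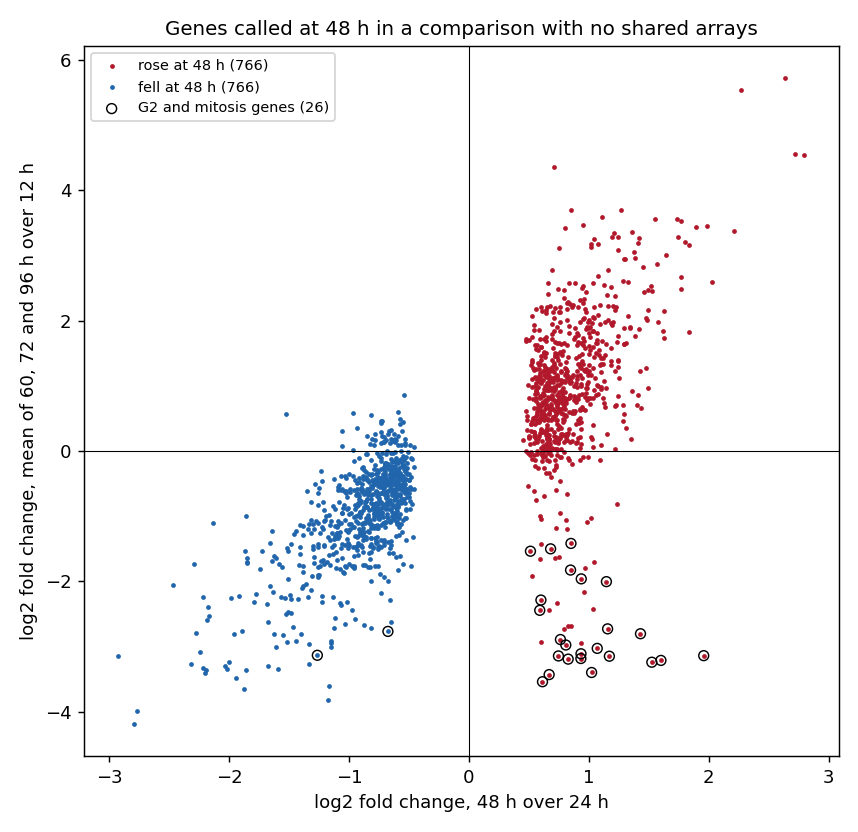
For the 1532 genes called in the step, the log2 fold change of 48 h over 24 h (horizontal axis) against that of the mean of 60, 72 and 96 h over 12 h (vertical axis), 2 comparisons with no array in common. Most risers lie above 0 and most fallers below it on the vertical axis, while the circled G2 and mitosis genes that rose all lie below it.

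The steps on either side share arrays with this one, so their values are only set side by side. From 12 h to 24 h, 1226 genes passed as higher at 24 h (9.79%) and 904 as lower (7.22%). From 48 h to 60 h no gene passed by limma, with 880 at an unadjusted p of 0.05. Both of these steps span 12 h, where the step examined spans 24 h. The last step, from 72 h to 96 h, shares no array with it. There 215 genes passed as higher at 96 h (1.72%) and 809 as lower (6.46%). CRYAB had log2 fold changes of 2.18, 2.64 and 0.76 in the steps to 24 h, 48 h and 60 h. SLC7A11 had -0.62, -2.24 and -0.047, and TOP2A had -4.45, 1.96 and -0.05. TOP2A thus fell and then rose, while CRYAB rose in the first 2 of these steps. CCND1 had -0.72, 0.94 and 0.29, and PPARGC1A had 1.55, 0.71 and -0.20.

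The step was also set against the last one of the course, 96 h against 72 h, by testing the difference of the 2 log2 fold changes in the same fit. It differed from 0 in 2668 genes, above it in 1567 (12.5%) and below it in 1101 (8.79%). With median scaling of all probes in place of quantile normalization these were 1258 and 330. TOP2A had a difference of 3.22: its log2 fold change was 1.96 from 24 h to 48 h and -1.26 from 72 h to 96 h. NPTX1 had 2.72 and -0.17, CYCS 1.07 and -0.44, and PPARGC1A 0.71 and -0.46. For these 4 genes the adjusted p of the difference was 0.000192, 0.000192, 0.00519 and 0.00851. TOP2A and NPTX1 were picked for a large first step, so their difference is partly set by the choice. PMEL, which rose in both steps by 1.89 and 1.48, had a difference of 0.42 that did not pass (adjusted p = 0.295).

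**Figure D5:**
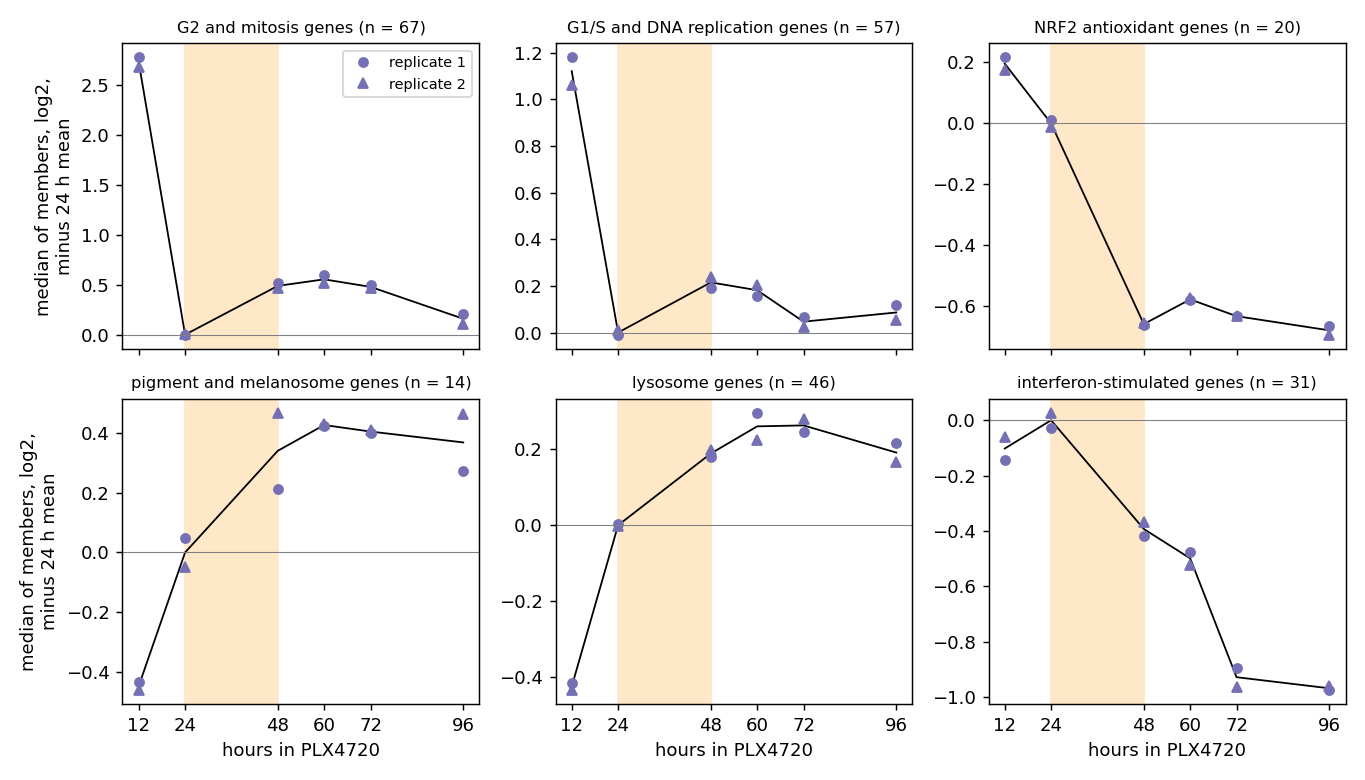
Median over the members of 6 gene lists of the log2 level minus each gene's 24 h mean, on each PLX4720 array (circles replicate 1, triangles replicate 2, line through their means), against hours in PLX4720. The shaded span is the step from 24 h to 48 h. The G2 and mitosis list stands 2.78 and 2.68 above its 24 h level on the arrays of 12 h, and 0.513 and 0.465 above it at 48 h. The NRF2 list stays between -0.574 and -0.694 on the arrays from 48 h on.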

How the data were processed

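RNA of whole WM9 cultures was copied to biotin-labelled cRNA and read on Illumina arrays, per the labels' protocols. The deposited unnormalized table held 1 signal intensity per probe and array for 47322 probes. Its 28 further columns were empty, so no detection p-values or negative controls were used. A second deposited table of log2 values, quantile normalized across arrays as its values show, served as an alternative. For the scanner and its software the sources used here give no name.

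Intensities were corrected with limma's normexp model (saddle-point fit, offset 16), taken to log2 and quantile normalized over the 14 arrays. The limit for background on an array was set from its signals below the mode: mirrored about the mode, they were taken as a normal distribution, and a probe past its upper 1% counted as above background. This held for 37.5% to 41.1% of probes per array. Names came from the platform's annotation: 30113 probes had 1 gene, 8 several and 17201 none there, and 30074 were matched by gene identifier to RefSeq (GRCh38.p14). Each gene was read from its brightest probe among those (16686 in all) that passed this limit on 2 or more PLX4720 arrays, which left 12520 of 20046 genes. BRAF and DCT were not analysed here.

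The 12 PLX4720 arrays were fitted with lmFit and eBayes (limma 3.58.1, R 4.3.3), with time as a factor of 6 levels, 6 residual and 5.13 prior degrees of freedom. Contrasts were 48 h minus 24 h, the mean of 60, 72 and 96 h minus 12 h, and the first contrast minus 96 h against 72 h. Tests were two-sided and adjusted by the Benjamini-Hochberg method over all 12520 genes at 0.05. Where both arrays of a time were under the background limit, the fold was computed against the lowest value above it, or the probe's own if higher, and is a lower bound ("at least"). Array number, 2 a group, limits the precision. The fit was tested on simulated data.

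Gene lists are described by counts and medians. Their counts are to be read against 6.12% rising and 6.12% falling over all genes tested. With the replicate block these shares are 10.8% and 10.6%. The arrays, the members and the 40 lists were chosen with earlier results of these data known. Named were the 15 largest rises and 15 largest falls past the threshold with non-overlapping arrays, the 2 largest rises and 2 largest falls of each list, and a fixed set of 17 genes. Further list members in the text were chosen after their values were seen.

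Same-numbered arrays deviated together from their group means over all 15 pairs of times (r from 0.158 to 0.427, and 0.347 for 48 h and 24 h). The numbers may therefore pair the samples, on the data's evidence alone. The main fit has no replicate term, so its counts, standard errors and adjusted p-values are unpaired. The fit with the replicate block is given beside counts it moves by over 1.5 times. Alternatives covered the arrays fitted, normalization, background correction, filter, probe rule, spread estimate, pairing and each replicate left out.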

Additional observations from a re-analysis of the deposited data

Results flagged for a closer look

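The step from 24 h to 48 h and the last step, from 72 h to 96 h, were compared by testing the difference of their log2 fold changes in the limma fit over the 12 PLX4720 arrays. It passed an adjusted p of 0.05 in 2668 genes. Groups of 2 arrays allow no check for single outlying arrays. The genes looked at 1 by 1 were the 15 largest rises, the 15 largest falls and the fixed set, and those whose steps differed are given here with the difference, the first step minus the last, on the log2 scale.

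Among the largest rises at 48 h the difference was 2.237 for SORCS2, 2.898 for NPTX1, 2.537 for CRYAB, 1.578 for LGI3, 1.934 for NDNF, 2.015 for SORCS1 and 3.215 for TOP2A. It was 1.871 for COL28A1, 2.435 for MIR3142HG, 2.61 for PTPRZ1, 1.601 for WNT4 and 2.094 for ENTHD1. Each of these had a smaller or opposite change in the last step. The genes were picked for a large first step, so a smaller last one is partly set by the choice.

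Among the largest falls at 48 h the difference was -2.202 for CRYGS, -2.666 for ART3, -2.989 for HKDC1, -2.424 for PLEKHS1, -2.821 for SLC14A1, -2.81 for PGAM2, -2.866 for ELAPOR1 and -2.102 for SLC7A11. It was -2.107 for NEFL, -2.32 for GCNT3, -1.7 for PPP2R2B, -2.022 for LCTL, -2.99 for TBXAS1, -2.004 for TKTL1 and -2.735 for SLC25A10. All 15 falls thus had a last step that differed. These genes too were picked for a large first step, so this is partly set by the choice.

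Of the fixed set, CCND1 had a difference of 0.9681, PPARGC1A 1.172, CYCS 1.51 and MITF 0.9683, and ETV5 had -0.9157.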

How the results depend on the processing

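Leaving out 1 array gave 467 to 1127 calls for 48 h against 24 h, 3732 to 4942 for the later times against 12 h and 1185 to 2679 for the difference of the steps. With all 14 arrays in the fit the step had 740 calls and the difference 810, with median scaling of all probes 686 and 1588, with no filter on dim probes 630 and 1218, and with every probe of the table as a feature 317 (136 higher, 181 lower) and 249. With the replicate block they were 2676 and 4259, and with only the 4 arrays of the step 888. Under the same median scaling the later times against 12 h split into 1723 higher and 2418 lower genes, against 2691 and 2450, and scaling on probes above background moved the median of the difference over all genes to -0.146. The cause of these moves was not tested. Among the named genes the replicate block changed no other call than those of 2 fixed genes, MITF and CCNB1, which passed with it.

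Of the 109 named genes called, 50 were called in each of the 20 alternatives that tested them. The alternative with genes above background on all 12 arrays tested only 91 of the 121 named genes. The other 59 were lost in at least 1 alternative, all of them with every probe of the table as a feature. None changed sign. List medians on the log2 scale moved by more than the replicate spread as follows. With the deposited log2 table they were 0.305 for G2 and mitosis, 0.12 for G1/S, 0.08 for ERK output and 0.16 for pigment genes. With no background correction they were 0.357 for G2 and mitosis, 0.142 for G1/S and 0.195 for pigment genes. With the mean of a gene's probes they were 0.184 for ERK output, -0.511 for NRF2, 0.456 for pigment and 0.036 for matrix genes. The NRF2 median was -0.73 with median scaling of all probes and -0.773 with scaling on probes above background, and that of ERK output 0.227 for genes above background on all 12 arrays. Leaving out 1 array gave 0.156 to 0.276 for G1/S, -0.446 to -0.327 for sterols, 0.213 to 0.47 for pigment and 0.0177 to 0.18 for matrix genes. For the 8 lists followed through every alternative no median changed sign. Without 1 array 11 of all 40 list medians did, with values up to 0.103 for ATF4, 0.0183 for fatty acid synthesis, 0.0134 for complex I, 0.0369 for complexes II and III, 0.0251 for glycolysis and 0.116 for endothelial markers, and down to -0.0202 for complex IV, -0.119 for fatty acid oxidation, -0.0352 for TGF-beta, -0.0477 for fibroblast and -0.244 for leukocyte markers.

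Signs turned only for genes that had not passed. SPRY4 had 0.2117 with the mean of its probes and -0.2959 to 0.1012 without single arrays. Without single arrays DUSP6 had -0.01397 to 0.1814, MKI67 -0.1351 to 0.7944 and CDKN1B -0.01398 to 0.3744. CDKN1A had -0.02267 with scaling on probes above background. Signal over background leaves the folds of 72 rises and 75 falls as bounds at best.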
